A study of Mus musculus with 24 samples.

Results

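In mouse macrophages carrying a hairpin against Wdr82, 640 sites bore a called H3K4me3 peak both after lipopolysaccharide (LPS) and in untreated cells, while neither H3K4me3 list from macrophages carrying the empty vector held a peak over them. They were chosen from the calls themselves. A peak of the untreated hairpin list was taken when it shared at least 1 bp with a peak of the LPS hairpin list and no base with any peak of the LPS or the untreated empty vector list. The 640 sites were 3.12% of the 20490 H3K4me3 peaks of the untreated hairpin list, and the whole series held 756484 peaks of 6 antibodies. All 640 entered every count, with no filter applied.

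The cells were bone marrow-derived macrophages of FVB/Hsd mice, infected with a retrovirus, selected with puromycin and taken at day 7. The hairpin group (shWdr82) carried a single hairpin, sh1137. H3K27ac and H3K4me3 were set against the empty LMP vector. The libraries of total Pol II (RNA polymerase II in any state), of its form phosphorylated on serine 2 of the tail repeat (Ser2P), of H3K4me1 and of H3K36me3 had a scrambled hairpin as control. Each vector was studied with 10 ng/ml LPS, the bacterial cell wall product that activates macrophages, and untreated. By the sample titles, LPS lasted 4 h in the libraries with the empty vector control and their hairpin partners and 45 min elsewhere, whereas the growth and treatment text names 4 h alone. The 24 chromatin immunoprecipitation libraries were 1 per group, so there was no replicate error and no test, and the intervals given are exact 95% binomial intervals for shares and 95% Wald intervals for differences, which cover counting error in these lists only. The depth of the libraries is unknown, because the files used here hold peak positions and scores and no read counts. The level of Wdr82 left in the cells and the macrophage marker genes were not analysed here, as no gene annotation of the build of the peaks was used, and the sites are therefore given by their mm9 positions.

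H3K4me3 marks active promoters. WDR82 is a subunit of the SETD1A and SETD1B complexes, which place this mark where Pol II begins transcription, and it is also found with a protein phosphatase complex that acts in transcription termination. H3K4me1 is the mark that typifies enhancers, H3K27ac marks active promoters and active enhancers, H3K36me3 lies over the bodies of transcribed genes, and Ser2P marks elongating polymerase. The title of the series links early termination to restrained transcription of cis-regulatory elements, so the data bear on whether such elements differ in chromatin state when Wdr82 is targeted.

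The sites were narrow and weakly scored for H3K4me3. Their width in the untreated hairpin list had a median of 467 bp, with the lowest at 140 bp and the highest at 1657 bp, against a median of 1364 bp for the 17135 peaks of that list that overlapped a peak in all other 3 H3K4me3 lists (called shared peaks from here on). Of the 640 sites, 371 (58.0%) were under 500 bp wide and 21 (3.28%) reached 1000 bp, against 69.8% of shared peaks that reached 1000 bp. The score is the authors' own value per peak, higher for a stronger call, and lists begin at 50. It had a median of 88.3 with LPS (range 50.01 to 3100) and 83.2 untreated (range 50.05 to 443.69), whereas the shared peaks had an untreated median of 3100. Scores pile up at 3100, with 9036 peaks (44.1%) of the untreated hairpin H3K4me3 list at about that value or above. The shared median is thus a ceiling value. These widths and scores come from the contrast that chose the sites and are given as a description only.

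**Figure D1:**
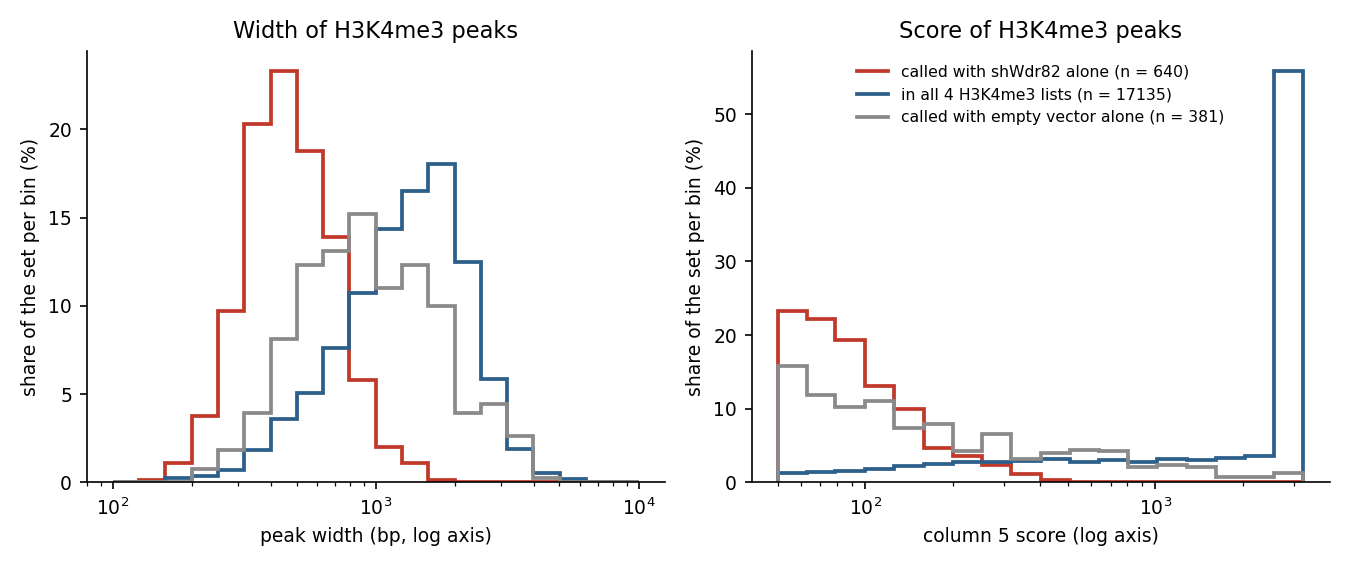
Widths in bp and authors' scores of H3K4me3 peaks in their own list (both axes logarithmic) for the sites called with shWdr82 alone, the shared peaks, and the peaks called with the empty vector alone. The 640 sites lie at the narrow and low end, with medians of 467 bp and 83.2 against 1364 bp and 3100 for the shared peaks. Scores pile up at a ceiling of 3100.

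Most of the sites sat close to the calling limit. The share of listed peaks that met the rule was 259 of 1932 (13.4%) at scores of 50 to 75 and 156 of 1016 (15.4%) at 75 to 100. It was 225 of 17542 (1.28%) at scores of 100 and over. A score of 100 or more in both hairpin lists was held by 136 sites (21.2%), 200 or more by 19 and 300 or more by 6. Within equal scores the gap in width between the sites and the shared peaks was small, with medians of 381 bp against 431 bp at 50 to 75, 451 bp against 485 bp at 75 to 100, and 597 bp against 681.5 bp from 100 to the highest score of any site. The 640 sites were what remained of 18825 untreated hairpin peaks that were found again with LPS (91.9% of the list). Of those, 1036 lacked an untreated empty vector peak, and the LPS empty vector list alone removed 396. The same rule applied in the mirror direction, from the untreated empty vector list, gave 381 peaks called with the empty vector alone, with a median width of 916 bp and a median score of 135.7 in their own list. The hairpin lists were longer, with 20490 peaks untreated and 19096 after LPS against 18951 and 17986 with the empty vector. With the same number of top peaks from each library the sites numbered 312, and the mirror count was not made. The counts of 640 and 381 therefore do not compare gain with loss.

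The sites differed in how stable their H3K4me3 peak was between the treatments. For 600 sites, every overlapping LPS hairpin peak was itself free of any overlap with an empty vector peak. Among these 600 the LPS score was the higher of the pair at 309 (51.5%) and the LPS peak was the wider at 479 (79.8%), with median widths of 637 bp with LPS and 474 bp untreated. The whole hairpin H3K4me3 list was wider with LPS too, with a median of 1430 bp against 1187 bp untreated. The shares of wider and of higher-scoring LPS peaks were not counted over the whole list. At the remaining 40 sites (6.25%) the LPS hairpin peak was long enough to reach an empty vector peak as well. Those 40 lay 10 to 1056 bp from the nearest empty vector peak (median 100.5 bp), and their LPS peaks had a median score of 311 and a median width of 1208.5 bp. Without the 40 the highest LPS score of any site was 932 in place of 3100.

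The edge of the rule was sharp but rested on few peaks. Among 18185 untreated hairpin peaks that overlapped both an LPS hairpin peak and an empty vector peak, 17 overlapped the empty vector peak by under 50 bp, and the smallest overlaps were 3, 6, 10, 12 and 13 bp. On the other side, 9 sites lay under 50 bp from an empty vector peak. The nearest was on chromosome 14 at 77557316 to 77557689, with a gap of 10 bp and scores of 527.77 with LPS and 53.47 untreated. The next were on chromosome 16 at 38456994 to 38457439 (gap 15 bp) and on chromosome 7 at 19575930 to 19576436 (gap 15 bp, scores of 2008.16 with LPS and 101.34 untreated). All 5 of the nearest sites belonged to the 40 whose LPS peak reached an empty vector peak.

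Most of the 640 sites lay several kb or more from any peak of the empty vector lists. The gap to the nearest empty vector H3K4me3 peak had a median of 19467.5 bp, with the lowest at 10 bp and the highest at 3634469 bp. It was under 1 kb at 79 sites (12.3%), 1 to 5 kb at 99 (15.5%), 5 to 50 kb at 285 (44.5%) and 50 kb or more at 177 (27.7%). Of the last, 111 were at 100 kb or more and 4 at 1 Mb or more. The sites were mostly single: joined at gaps under 10 kb they made 608 separate sites, and 61 of them fell in 29 sites of more than 1 member, none larger than 3.

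**Figure D2:**
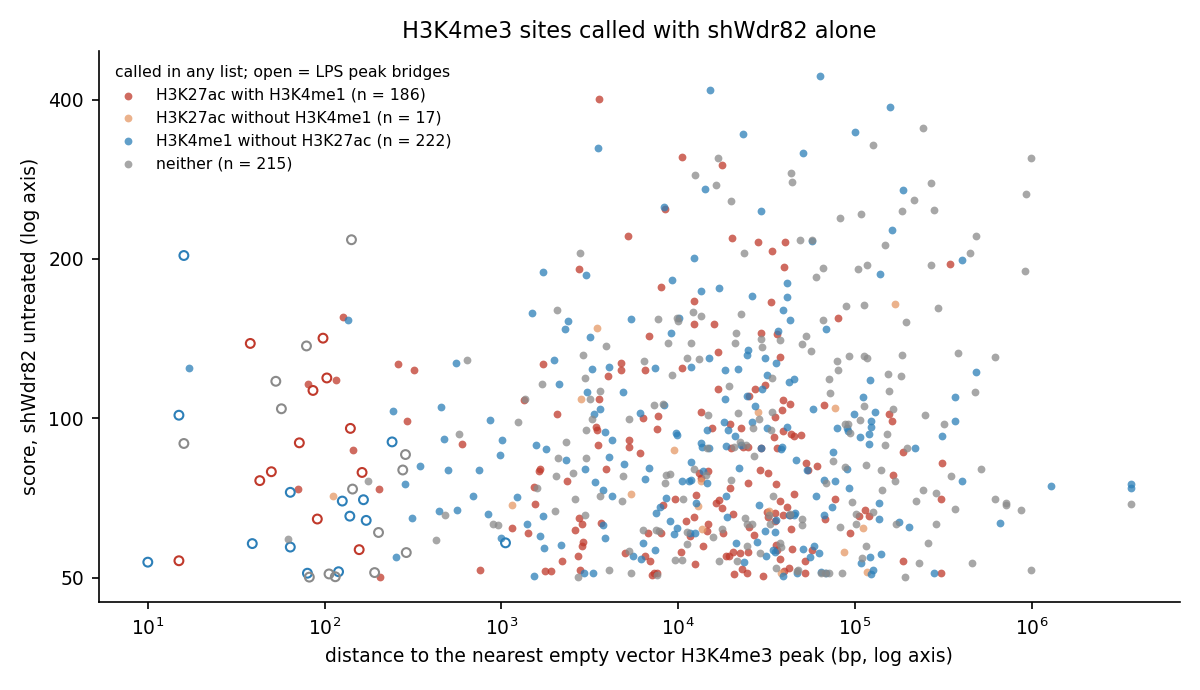
Gap in bp from each of the 640 sites to the nearest empty vector H3K4me3 peak (logarithmic) against the authors' score in the untreated hairpin list (logarithmic), coloured by the H3K27ac and H3K4me1 calls; open points are the 40 sites whose LPS peak reaches an empty vector peak. The open points sit at 10 to 1056 bp and the bulk of the sites between a few kb and 100 kb. The median score was 78.8 with both marks, 71.3 with H3K27ac alone, 86.9 with H3K4me1 alone and 89.6 with neither.

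Low-scoring shared peaks lay closer to other H3K4me3 peaks than the sites did. To compare them, the gap to the nearest other peak of the untreated hairpin list itself was used. At scores of 50 to 75 its median was 13794 bp for the sites and 141 bp for shared peaks. At those scores 21.6% of the sites and 63.8% of the shared peaks were under 1 kb from another peak. From 100 to the highest score of any site these shares were 16.0% and 32.9%, and 28.9% of the sites against 15.7% of the shared peaks lay at 50 kb or more. Over all scores the difference was small, with a median of 14744 bp for the sites and 12654 bp for the shared peaks, and 19.5% of the sites and 23.6% of the shared peaks under 1 kb. The rule bears on this comparison, since it leaves out a peak whose neighbour is broad enough in an empty vector list to overlap it.

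The other 5 antibodies were not used by the rule, and they show what else was called at the sites. H3K4me1 was the most frequent mark and H3K36me3 the least. H3K4me1 was called at 321 sites (50.2%) with shWdr82 and 334 (52.2%) with the scrambled hairpin after LPS, and at 292 (45.6%) with shWdr82 and 299 (46.7%) with the scrambled hairpin in untreated cells. The difference between the vectors was -2.03 percentage points after LPS (95% interval -5.25 to 1.19) and -1.09 untreated (-4.23 to 2.04), so both intervals include 0. H3K4me1 calls unique to shWdr82 numbered 49 after LPS and 49 untreated, and those unique to the scrambled hairpin 62 and 56. Over all 20490 untreated hairpin peaks the shWdr82 list alone held 5.46% after LPS and 5.78% untreated, and the scrambled list alone held 12.2% and 13.3%. At the shared peaks the difference was -7.77 points after LPS and -8.88 untreated, outside the sites' intervals. In the shared peaks with scores from 100 to the highest of any site it was -3.89 after LPS and -2.42 untreated, inside them. With only peaks of score 100 or more counted in the lists of the other antibodies, the difference at the sites was 1.25 points (-1.75 to 4.25) after LPS and -2.97 (-5.78 to -0.155) untreated, so that the untreated interval excludes 0.

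H3K27ac, the acetylation of active elements, was called at a similar share of the sites with either vector. After LPS it was called at 149 sites (23.3%) with shWdr82 and 153 (23.9%) with the empty vector, a difference of -0.625 points (-2.19 to 0.936). In untreated cells it was called at 168 sites (26.2%) with shWdr82 and 159 (24.8%) with the empty vector, a difference of 1.41 points (0.148 to 2.66). The untreated interval lies just above 0 and rests on 13 sites called with shWdr82 only and 4 called with the empty vector only. Over all untreated hairpin peaks the corresponding shares were 2.33% for the shWdr82 list alone and 1.43% for the empty vector list alone, and 2.02% and 2.87% after LPS. The interval includes 0 at 1.28 points (-0.489 to 3.05) when the same number of top peaks was taken from each library, and at 0.891 points (-0.366 to 2.15) for sites at least 1000 bp from an empty vector peak. For the 225 sites with scores of 100 or more it was 3.11 points (0.843 to 5.38), from 7 sites called with shWdr82 only and 0 called with the empty vector only. No site had H3K27ac in both shWdr82 lists and neither empty vector list, against 0.166% of all 20490 peaks.

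Of the 3 readouts of transcription, total Pol II was the most frequent. After LPS it was called at 55 sites (8.59%) with shWdr82 and 51 (7.97%) with the scrambled hairpin, a difference of 0.625 points (-0.811 to 2.06), which was 1.41 points (0.148 to 2.66) with only Pol II peaks of score 100 or more. Untreated, the numbers were 90 (14.1%) with shWdr82 and 89 (13.9%) with the scrambled hairpin, a difference of 0.156 points (-1.60 to 1.92). Pol II calls unique to shWdr82 numbered 13 after LPS and 17 untreated, and those unique to the scrambled hairpin 9 and 16. The shares of all peaks were 4.55% and 2.47% for the shWdr82 list alone, and 3.22% and 4.59% for the scrambled list alone. H3K36me3 was called at 17 sites with shWdr82 and 19 with the scrambled hairpin after LPS, and at 20 (3.12%) and 22 (3.44%) untreated. The difference was -0.312 points in both treatments, with 1 site after LPS and 2 untreated called with shWdr82 only (1.30% and 1.01% of all peaks) and 3 and 4 called with the scrambled hairpin only (2.86% and 3.99% of all peaks).

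Ser2P after LPS gave the other difference whose interval excluded 0. Elongating polymerase was called at 43 sites (6.72%) with shWdr82 and 31 (4.84%) with the scrambled hairpin, a difference of 1.88 points (0.513 to 3.24). It rested on 16 sites called with shWdr82 only and 4 called with the scrambled hairpin only, where the shares of all 20490 peaks were 3.37% and 2.66%. Untreated, the calls were 29 (4.53%) with shWdr82 and 30 (4.69%) with the scrambled hairpin, a difference of -0.156 points (-1.42 to 1.11), with 8 and 9 sites in 1 list alone where 1.76% and 3.45% of all peaks were. The 16 sites carried H3K4me1 in 12 cases, total Pol II in 8 and H3K27ac in 7, each in any list. Over all 640 sites these marks were at 63.75%, 20% and 31.7%. Their Ser2P peaks were broad, 633 to 19417 bp wide with a median of 4684.5 bp, so they covered far more than the H3K4me3 site itself. At 5 of the 16 the scrambled LPS list had a Ser2P peak under 1 kb away. The whole Ser2P list after LPS covered 60.6 Mb with shWdr82 and 44.7 Mb with the scrambled hairpin, and its part in the result was not tested. With the same number of top peaks from each library the difference was 1.60 points (-0.473 to 3.68), an interval that includes 0.

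**Figure D3:**
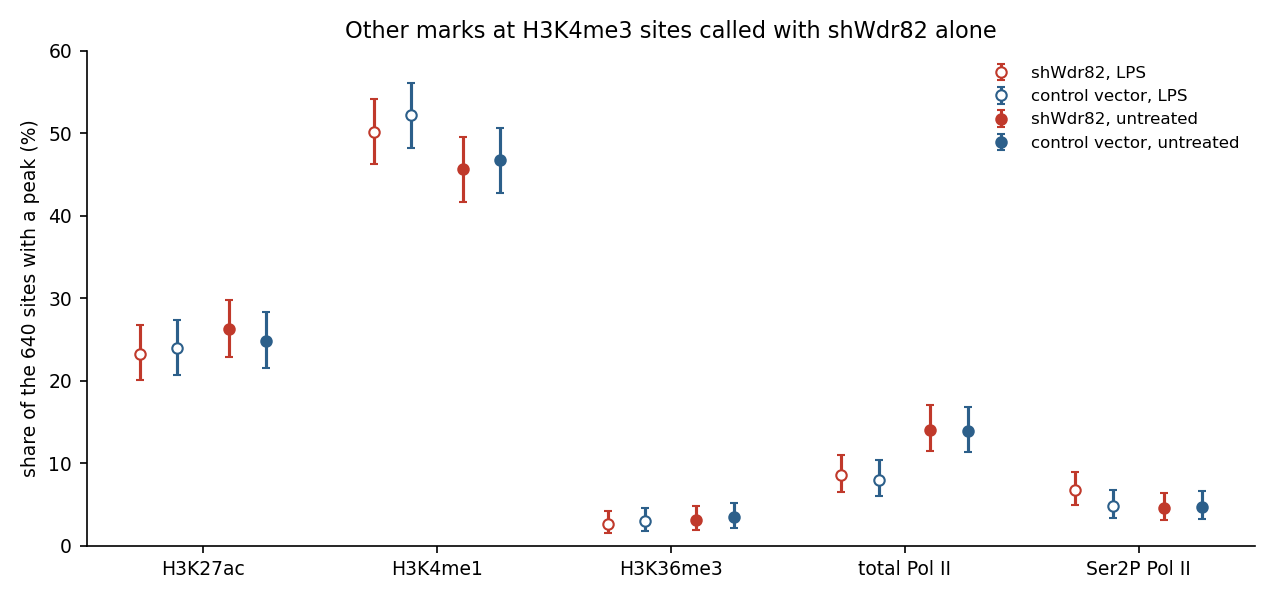
Share of the 640 sites (vertical axis, %) overlapped by a peak of each other antibody, in shWdr82 and control vector libraries, after LPS (open) and untreated (filled); bars are exact 95% binomial intervals for counting error. Within each antibody and treatment the shWdr82 and control points lie within 2.03 percentage points of each other.

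Calls that separated the vectors in both treatments were rare. H3K4me1 was in both shWdr82 lists and neither scrambled list at 15 sites (2.34%), and in both scrambled lists alone at 11 (1.72%). Of all 20490 peaks, 1.28% and 4.58% were. Total Pol II gave 1 (0.156%) and 3 (0.469%) such sites, where 0.361% and 0.356% of all peaks were. Ser2P gave 2 and 0 (0.351% and 0.625% of all peaks), and H3K36me3 gave 0 and 1 (0.200% and 1.15% of all peaks). In all, 18 of the 640 sites had another mark in both shWdr82 lists alone. This pooled count was not made over all 20490 peaks, so it does not set the sites apart.

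The sites fell into 3 large classes by whether H3K27ac and H3K4me1 were called in any of their lists. Both marks were called at 186 sites (29.1%, interval 25.6 to 32.8), and 102 of these (54.8%) also carried total Pol II. H3K4me1 without H3K27ac was called at 222 sites (34.7%), of which 12 carried total Pol II, 22 carried Ser2P and 196 carried none of the transcription readouts. Neither was called at 215 sites (33.6%), of which 10 carried total Pol II and 13 Ser2P. H3K27ac without H3K4me1 was found at 17 sites. These classes were not counted over all 20490 peaks, but single marks were. H3K27ac was in no list at 68.3% of the sites and 26.9% of all peaks, and H3K4me1 at 36.25% and 19.3%. Total Pol II was in no list at 80% and 30.35%, and Ser2P at 91.4% and 82.0%. The class without either mark lay farther out, with 42.3% at 50 kb or more from an empty vector peak and a median gap of 29704 bp, against 12.4% and 15192 bp for the class with both. Where an untreated shWdr82 H3K4me1 peak overlapped a site, it covered the site fully at 241 of 292 (82.5%). This was close to 79.4% for shared peaks in the sites' range of scores and above the 26.4% for all shared peaks, which are wider.

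At 194 sites (30.3%, interval 26.8 to 34.0) no peak of any other antibody was called in any of the 20 other lists. The same was true of 882 shared peaks (5.15%) and of 12 of the 381 peaks called with the empty vector alone (3.15%). The difference was present at every band of score: the shares for the sites and the shared peaks were 27.4% and 7.29% at 50 to 75, 24.4% and 9.28% at 75 to 100, and 37.8% and 11.8% from 100 to the highest score of any site. The 194 sites without another mark had a median score of 93.6, a median width of 440 bp and a median gap of 37846.5 bp to an empty vector peak. For the 446 sites with another mark the medians were 80.2, 476 bp and 14638 bp. The nearest peak of any other list lay at a median of 11525 bp from the 194 sites, between 8 and 271014 bp. At the other end, no site had a peak in all 20 other lists.

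Marks of active elements were scarcer at the sites than at shared peaks of equal score. At 50 to 75, untreated shWdr82 H3K27ac was called at 29.0% of the sites (23.5 to 34.9) and 70.4% of the shared peaks (65.6 to 74.8). From 100 to the highest score of any site it was called at 22.7% (17.4 to 28.7) and 54.3% (52.4 to 56.1). Total Pol II showed the same order, at 17.0% of the sites and 51.8% of the shared peaks at 50 to 75, and at 10.7% and 43.3% in the upper band. H3K4me1 differed less, with 49.0% of the sites and 65.3% of the shared peaks at 50 to 75, and 38.7% and 56.7% in the upper band. Ser2P was at 3.09% of the sites and 4.27% of the shared peaks at 50 to 75 and at 5.33% and 7.13% in the upper band, with intervals that overlap in both. The peaks called with the empty vector alone were far more often marked than the sites: H3K27ac was at 79.0% of them with shWdr82 and 82.9% with the empty vector in untreated cells, and total Pol II at 55.4% with shWdr82 and 63.0% with the scrambled hairpin. Within their own list at scores of 50 to 75, H3K27ac was at 66.0% with shWdr82 and 70.1% with the empty vector, and total Pol II at 48.5% with shWdr82 and 57.7% with the scrambled hairpin (97 peaks). These scores come from another list than those of the sites, so equal scores need not stand for equal strength. The peaks called with the empty vector alone also lay closer to other H3K4me3 peaks. Their median gap to the nearest other peak of their own list was 1292 bp, against 14744 bp for the sites. At scores of 50 to 75, 52.6% of them and 21.6% of the sites lay under 1 kb from another peak. The part of this closeness in the difference in marks was not tested.

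**Figure D4:**
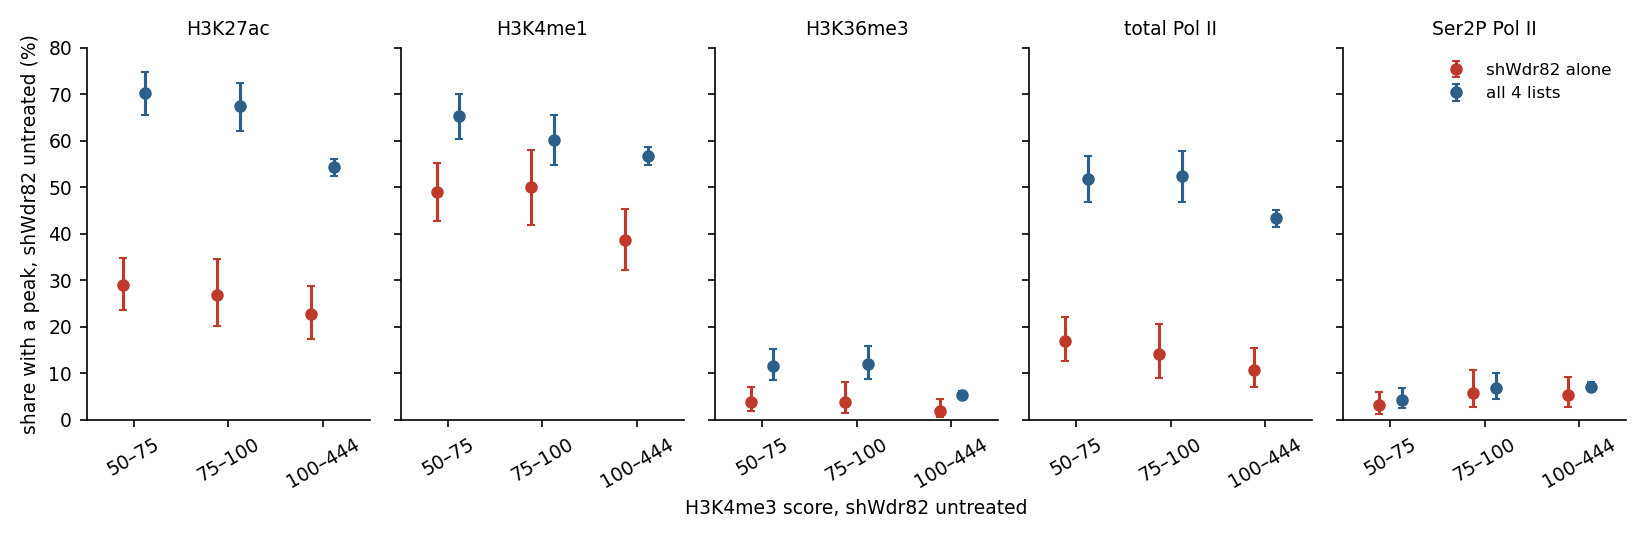
Share of peaks (vertical axis, %) with each other mark in the untreated shWdr82 lists, for the 640 sites and for the shared peaks, by band of H3K4me3 score; bars are exact 95% binomial intervals. H3K27ac at scores of 50 to 75 is at 29.0% of the sites and 70.4% of the shared peaks, and Ser2P differs least.

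The marks were scarcest at the sites farthest from H3K4me3 that was present with the empty vector, while the nearer bands differed little for H3K27ac and H3K4me1. In untreated shWdr82 cells H3K27ac was called at 30.4%, 29.3% and 35.4% of the sites at under 1 kb, 1 to 5 kb and 5 to 50 kb, and at 7.91% at 50 kb or more. H3K4me1 was at 50.6%, 54.5%, 51.2% and 29.4% in the same order, and total Pol II at 22.8%, 13.1%, 18.6% and 3.39%. Ser2P was called at 10.1%, 8.08% and 4.56% and at 0 of 177 sites at 50 kb or more, for which the exact interval reaches 2.06%. The share with no other mark was 25.3%, 22.2% and 22.1% below 50 kb and 50.3% beyond it. Shared peaks in the sites' range of scores were less scarce in marks at that range: at 50 kb or more from another peak of the list, H3K27ac was at 7.24% of the sites (3.67 to 12.6) and 41.7% of the shared peaks (37.4 to 46.1). At 5 to 50 kb it was at 34.4% (28.8 to 40.4) and 47.4% (44.7 to 50.2).

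**Figure D5:**
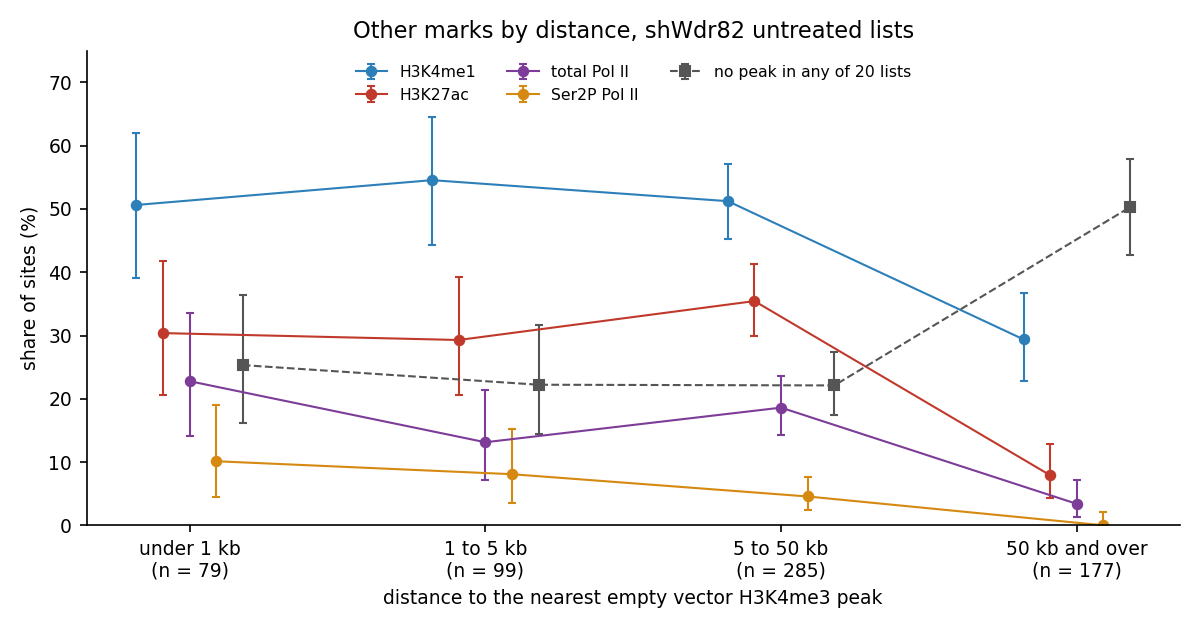
Share of the 640 sites (vertical axis, %) with each mark in the untreated shWdr82 lists, and with no other mark in any list, by gap to the nearest empty vector H3K4me3 peak; bars are exact 95% binomial intervals. H3K27ac, H3K4me1 and total Pol II are lowest at 50 kb or more, where 50.3% of the sites carry no other mark.

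After LPS, total Pol II was called at fewer of the sites and H3K4me1 at more, with either vector. The lists themselves differed in the same way. Those of total Pol II held 22307 peaks after LPS and 28497 untreated with shWdr82, and 21891 and 32385 with the scrambled hairpin. Those of H3K4me1 held 61848 and 60602 with shWdr82, and 65149 and 61252 with the scrambled hairpin. The part of list size in the differences below was not tested. With shWdr82, total Pol II was called at 55 sites after LPS and 90 untreated, a difference of -5.47 points (-8.12 to -2.81). With the scrambled hairpin the difference was -5.94 points (-8.67 to -3.20). At the shared peaks it was -11.0 points with shWdr82 and -14.5 with the scrambled hairpin. H3K4me1 was called more often after LPS, by 4.53 points (1.41 to 7.65) with shWdr82 and 5.47 points (2.64 to 8.29) with the scrambled hairpin, where the shared peaks gave 3.607 and 2.498 points. For H3K27ac the difference was -2.97 points (-5.72 to -0.222) with shWdr82 and -0.938 points (-3.46 to 1.59) with the empty vector, and at the shared peaks it was -8.31 and -6.50 points. Ser2P differed by 2.19 points (0.635 to 3.74) with shWdr82 and by 0.156 points (-1.31 to 1.62) with the scrambled hairpin, against 0.998 and -1.34 points at the shared peaks. These directions at the sites are thus those of the shared peaks too, apart from Ser2P with the scrambled hairpin. For H3K27ac and Ser2P the interval excludes 0 with shWdr82 only, and the difference between the vectors was not tested.

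At some sites both vectors had a mark in 1 treatment alone. H3K27ac was in both LPS lists and neither untreated list at 23 sites (3.59%), and in both untreated lists alone at 30 (4.69%), where 2.03% and 6.69% of all 20490 peaks were. H3K4me1 was called in any list at 17 of the 23 (73.9%) and 29 of the 30 (96.7%). Both groups have H3K27ac by choice. Of the 203 sites with H3K27ac in any list, 186 had H3K4me1 and 17 did not. Total Pol II was in both LPS lists alone at 12 sites (1.88%) and in both untreated lists alone at 44 (6.88%), where 1.38% and 10.9% of all peaks were. Of these sites 11 and 43 carried H3K27ac in any list. Total Pol II was called in any list at 128 sites. Of those, 102 had both H3K27ac and H3K4me1, 4 had H3K27ac without H3K4me1, 12 had H3K4me1 without H3K27ac and 10 had neither.

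The 10 sites with the highest lower score of the hairpin pair were taken as the firmest calls, with lower scores of 272.77 to 440.29. In any list, H3K4me1 was called at 7 of them, H3K27ac at 2, total Pol II at 1 and Ser2P at 1, and 3 had no other mark. Over all 640 sites H3K4me1 was at 63.75%, H3K27ac at 31.7%, total Pol II at 20% and Ser2P at 8.59%, with no other mark at 30.3%. So few sites do not set the firmest calls apart from the rest. First was chromosome 16, 97578078 to 97579035, with scores of 440.29 after LPS and 443.69 untreated. It carried H3K4me1 in all 4 lists, no other mark, and lay 63235 bp from an empty vector peak. Chromosome 13, 21350814 to 21351498, had 932 after LPS and 417.19 untreated, again with H3K4me1 in all 4 lists, in a site of 3 members. Chromosome 1, 23768789 to 23770259, a peak of 1471 bp with 468.16 after LPS and 387.84 untreated, lay 157840 bp from an empty vector peak and had H3K4me1 in every list but the untreated shWdr82 one.

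Some firm H3K4me3 calls lay far from any empty vector H3K4me3 peak. Chromosome 5, 14514597 to 14515410, had scores of 467.68 after LPS and 310.47 untreated, no other mark in any list, and a gap of 987112 bp to the nearest empty vector H3K4me3 peak. Chromosome 7, 53651556 to 53652221, had 357.01 after LPS and 353.99 untreated, likewise with no other mark and a gap of 242008 bp. The site on chromosome 10 at 79805388 to 79806529 was the contrary case. It scored 274.5 after LPS and 400.52 untreated and carried H3K27ac and H3K4me1 in all 4 lists, with total Pol II in both scrambled lists and neither shWdr82 list and Ser2P in every list but the LPS shWdr82 one. Chromosome 15, 36645510 to 36646402, had H3K27ac in both LPS lists alone and H3K4me1 in both scrambled lists alone.

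The widest site, chromosome 11, 74978274 to 74979930 (1657 bp), was 1 of the 15 with H3K4me1 in both shWdr82 lists and neither scrambled list. Chromosome 2, 35351115 to 35352636, carried H3K27ac, H3K4me1 and total Pol II in all 4 lists of each. The farthest 3 sites lay together on chromosome 3, in a stretch of 2634 bp from 45179980 to 45182613, 3632106 to 3634469 bp from the nearest empty vector peak, with no H3K27ac or polymerase call and with H3K4me1 at 2 of the 3. Next came chromosome 7, 84277566 to 84278292, at 1282746 bp. Chromosome 4, 153399812 to 153400451, was the site where Ser2P was called in both shWdr82 lists alone with no other antibody called at all.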

How the data were processed

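Per the submitters' processing notes, the tools named are Bowtie 0.12.7, MACS 1.4 and the mm9 build. The deposited files are peak lists, 1 per library, each with position, peak name and a score per peak from the authors. Scores were also used across lists. Those of the LPS and untreated hairpin H3K4me3 lists were compared and ranked, and a single cutoff of 100 was applied to different lists. Whether equal scores stand for equal strength in different lists was not tested. Input, depth and filters were not found in the sources read. Positions are given 1-based. Overlaps of at least 1 bp were computed with numpy 2.4.6 and pandas 2.3.3, checked on simulated intervals and against bedtools 2.31.1, and binomial intervals with scipy 1.17.1. Intervals of paired differences are 95% Wald intervals over sites and cover counting error only; neighbouring sites may not be independent. Regions named are the 10 with the highest lower score, the 5 widest, 5 farthest from and 5 nearest to an empty vector peak, and 10 with another mark in both shWdr82 lists alone; the text gives part of them. Alternatives were a stricter score of 100, 50% coverage, a gap of 1000 bp, LPS borders and equal numbers of peaks per library. The sites and all choices were made with earlier results of these data known; the upper score band, the split by distance and the counts of separate sites were added after seeing the values. Marker and gene lists could not be applied to mm9 positions.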

Additional observations from a re-analysis of the deposited data

Results flagged for a closer look

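At the 640 sites the H3K27ac difference between shWdr82 and the empty vector had opposite signs in the treatments, -0.625 percentage points after LPS and 1.41 points untreated. The Ser2P difference between shWdr82 and the scrambled hairpin was 1.88 points after LPS and -0.156 points untreated. The shared peaks had the same signs, so these are not particular to the sites. There the H3K27ac difference was -1.02 points after LPS and 0.794 untreated, and the Ser2P difference 0.455 and -1.885. With 1 library per group, neither difference between the treatments was tested.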

How the results depend on the processing

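Of 96 alternative values, 13 moved, which for a share or a difference means outside the counting interval of the value reported and for the number of sites a change of more than 1.5 times. With sites scored 100 or more, 225 sites remained, H3K27ac was at 22.67%, H3K4me1 at 38.67%, H3K36me3 at 1.778% and total Pol II at 10.67%, and the untreated H3K27ac difference was 3.111 points (0.843 to 5.38). With the same number of top peaks from each library there were 312 sites, with H3K4me1 at 41.67%, H3K36me3 at 1.282% and total Pol II at 10.26%, and all 10 vector differences had intervals that include 0. With the other lists held to scores of 100 or more, H3K4me1 was at 34.38% and total Pol II at 10.78%, and the H3K4me1 difference after LPS was 1.25 points, against -2.03, a change of sign within intervals that include 0. Under that setting 4 of 10 intervals exclude 0, among them H3K4me1 untreated at -2.97 points (-5.78 to -0.155) and total Pol II after LPS at 1.41 points (0.148 to 2.66), whose reported intervals include 0. The cause of these shifts was not tested, nor was the part of the smaller number of peaks. The Ser2P difference after LPS was 1.60 points (-0.473 to 3.68) with equal numbers and 1.33 (-1.27 to 3.94) for sites scored 100 or more. The untreated H3K27ac difference was 1.25 points (-0.0457 to 2.55) where 50% of the site had to be covered, and 0.891 (-0.366 to 2.15) for sites at least 1000 bp from an empty vector peak. The count was 561 at that gap, 595 with LPS borders, 600 without sites whose LPS peak reaches an empty vector peak, and 608 as separate sites.

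No paired analysis was possible because each group has 1 library and the labels give no replicate numbers, and leaving out a library leaves none. An absent call does not show an absent mark, since a peak list keeps only what passed the caller's limit.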

Other observations

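The 640 sites were spread over the chromosomes, from 17 on chromosome 16 to 54 on chromosome 2, and made up 2.23% of the untreated hairpin H3K4me3 peaks of chromosome 11 and 4.18% of those of chromosome 18.

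A further 915 peaks were in the untreated hairpin H3K4me3 list and in none of the other 3 H3K4me3 lists. At these, H3K27ac was called at 31.6% with shWdr82 and 31.0% with the empty vector after LPS, and at 36.6% and 34.8% untreated. Ser2P was called at 5.36% with shWdr82 and 3.50% with the scrambled hairpin after LPS, and at 3.93% and 4.26% untreated.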
